A study of Mus musculus with 8 samples.

Results

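The genes described here are the natriuretic peptide system of the mouse: the peptide genes *Nppa*, *Nppb* and *Nppc*, the receptor genes *Npr1*, *Npr2* and *Npr3*, and *Corin*, which encodes a peptide-processing protease. They were taken by gene symbol, which gave 7 of the 53465 genes in the expression table. RNA-seq of polyadenylated RNA, in reads of 60 bases from 1 end, was available for heart ventricles of mouse embryos at embryonic day (E) 9.5, with 4 samples of genotype WT and 4 of genotype Nrg-1flox;Tie2-Cre, called KO below. In KO, the neuregulin-1 gene *Nrg1* is deleted by the endothelial driver Tie2-Cre, which acts in the endocardium and also in blood cells that arise from endothelium. The labels give neither the strain, the flox or Cre status of the WT embryos, nor how many embryos make a sample, so p-values measure the spread between these samples, which may be technical.

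Natriuretic peptides are hormones of the heart. *Nppa* encodes atrial natriuretic peptide (ANP) and *Nppb* encodes B-type natriuretic peptide (BNP). In the embryonic ventricle *Nppa* marks the trabecular (inner, spongy) myocardium, and *Nppb* is expressed there too. *Nppc* encodes C-type natriuretic peptide (CNP), best known from endothelium and growth plate cartilage. The peptides are made as precursors, and corin cleaves the ANP precursor at the cardiomyocyte surface. *Npr1* and *Npr2* encode receptors that make cyclic GMP when ANP and BNP (*Npr1*) or CNP (*Npr2*) bind. *Npr3* encodes the clearance receptor, which removes the peptides and is prominent in the endocardium. Neuregulin-1 is a signal from the endocardium to the myocardium that is required for trabeculation. The comparison thus asks how the peptide genes of the trabeculae and the receptor of the endocardium stand when *Nrg1* is deleted with Tie2-Cre.

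*Nppb* and *Nppa* are neighbours on the plus strand of chromosome 4 (GRCm38, GENCODE M21). *Nppb* runs from 147985788 to 147987205 and *Nppa* from 148000722 to 148002079, each with 3 exons, and 13516 bases lie between them. The sequences before their starts are shown because these adjacent genes are the most highly expressed members and only *Nppb* passed the test below. The windows come from the RefSeq promoter table (build GRCm38.p6), which held all 7 genes, and are written 5′ to 3′. Capitals mark matches, on either strand, to letters bound by cardiac factors or by the basal machinery: GATAA for GATA factors, AAGTG for NKX2-5, AGGTGTGA for T-box factors, GGAATG for TEAD factors (the M-CAT element) and TATAAA for the TATA box. None of the matches in these windows overlapped another. The 250 bases before *Nppa*, chr4:148000472-148000721, hold matches to 4 of the 5 motifs:
*Nppa*: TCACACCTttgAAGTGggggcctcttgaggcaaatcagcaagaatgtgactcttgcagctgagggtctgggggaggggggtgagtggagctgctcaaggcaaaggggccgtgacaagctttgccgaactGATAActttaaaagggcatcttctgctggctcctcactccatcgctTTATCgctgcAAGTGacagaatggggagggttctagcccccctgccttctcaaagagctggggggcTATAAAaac
GENCODE M21 starts the first exon of *Nppb* 112 bases before the RefSeq start. The bases before that exon, chr4:147985650-147985787, are followed by stretches of 30 bases at chr4:147985793-147985822 and chr4:147985854-147985883, which hold the matches of the *Nppb* window:
*Nppb* distal: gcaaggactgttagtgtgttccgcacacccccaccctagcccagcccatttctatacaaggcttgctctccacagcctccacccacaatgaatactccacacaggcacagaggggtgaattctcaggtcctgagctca
*Nppb* middle: caGGAATGcagctGATAAatcagaGATAAc
*Nppb* proximal: gacactcagccccagTATAAAaggcagagg

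The *Nppa* window thus held the GATA letters at 2 places, the NKX2-5 letters at 2, the T-box letters at 1 and the TATA letters at 1. The *Nppb* window held the GATA letters at 2 places, the M-CAT letters at 1 and the TATA letters at 1, and neither the NKX2-5 nor the T-box letters. Of 32851 promoter windows of 250 bases in the table, 22.6% held the GATA letters, 40.7% the NKX2-5 letters, 1.12% the T-box letters, 12.6% the M-CAT letters and 12.4% the TATA letters. A match is a description of the letters and no evidence of binding.

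Expression was compared between genes per length, as TMM-normalized CPM (read counts scaled to a common library size) per kilobase of merged exons. In WT, *Nppa* stood at 1120 ± 135 CPM per kb (SD, n = 4) and *Nppb* at 144 ± 18 CPM per kb. The clearance receptor *Npr3* followed at 14 ± 1.25 CPM per kb and *Corin* at 5.87 ± 0.817 CPM per kb. The cyclase receptors were lowest, *Npr1* at 3.71 ± 0.242 and *Npr2* at 3.04 ± 0.188 CPM per kb. No 2 neighbours in this order overlapped between their WT samples, the closest being *Npr1* (3.50 to 3.99) and *Npr2* (2.85 to 3.22). In KO the order was the same, but *Npr1* (2.59 to 4.21) and *Npr2* (2.37 to 3.43) overlapped. With the longest transcript in place of merged exons, *Npr3* was at 19.0, *Corin* at 6.52, *Npr1* at 4.36 and *Npr2* at 3.88 CPM per kb in WT, in the same order. *Nppc* (chr1:86666291-86670571, minus strand) had 0 counts in all 8 samples, which allows a level of up to 0.209 to 0.253 CPM per sample (3 counts of the sample's total, covering counting error only). Transcripts of CNP were thus not detectable at this depth.

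**Figure D1:**
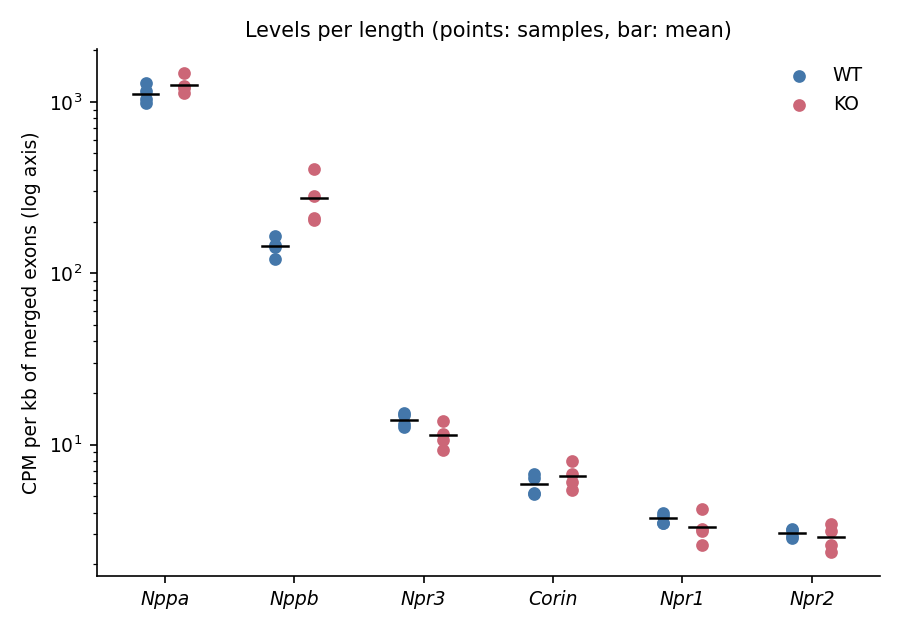
Expression of 6 natriuretic peptide genes in CPM per kilobase of merged exons (log axis) in WT and KO ventricles, with points for samples and bars for means of 4. The *Nppa* samples lie between 986 and 1470 CPM per kb and the cyclase receptors *Npr1* and *Npr2* between 2.37 and 4.21 CPM per kb.

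The genotype was read from the targeted gene first. *Nrg1* had 61, 59, 71 and 72 counts in KO replicates 1 to 4 and 156, 131, 121 and 173 counts in WT replicates 1 to 4, and its log2 fold change was -1.07 (SE 0.14, adjusted p = 0.00268, edgeR's quasi-likelihood test, with p-values adjusted by the Benjamini-Hochberg method over 14451 genes). *Nrg1* RNA was thus lower, but still present, in every KO sample. Total counts ranged from 11852506 to 14360427 per sample. Of the genes tested, 8.62% had an adjusted p under 0.05, 5.11% higher and 3.50% lower in KO. Of the 7 natriuretic peptide genes 6 were tested, and 1 of them, *Nppb*, passed. This share of 1 in 6 is read against the 8.62% of all genes and is no evidence about the group.

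*Nppb*, the BNP gene, rose in KO to 1.92 times its WT level. Its counts were 3758, 3026, 2292 and 1937 in KO replicates 1 to 4 and 1508, 1547, 1569 and 1402 in WT replicates 1 to 4. In CPM these are 319, 219, 165 and 160 in KO and 115, 111, 129 and 94.8 in WT. Every KO sample lay above every WT sample, which was so for 9.52% of all genes tested, and the KO samples spread more (216 ± 73.8 CPM against 112 ± 14.1, SD, n = 4). The log2 fold change was 0.94 (SE 0.20, 95% interval 0.48 to 1.40, adjusted p = 0.0218, edgeR). The highest sample was KO replicate 1, and without it the log2 fold change was 0.69 (adjusted p = 0.00428). Without WT replicate 1, 2 or 4 the value was 0.95, 0.93 and 0.86, with adjusted p of 0.0684, 0.0645 and 0.0762, so the call was lost in 3 of the 8 fits with a sample left out.

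*Nppa*, the ANP gene and the most highly expressed member, did not pass the test. Its counts were 15042, 13402, 14476 and 12931 in KO and 13022, 15578, 10900 and 12621 in WT, or 1280, 970, 1040 and 1070 CPM in KO and 995, 1120, 896 and 853 CPM in WT. The groups overlapped, with KO replicate 1 the highest of the 8 samples. The log2 fold change was 0.17 (SE 0.10, 95% interval -0.06 to 0.40, adjusted p = 0.329, edgeR), an interval that holds a fall to 0.962 times and a rise to 1.32 times the WT level. The antisense gene *Gm13054* overlaps 532 exonic bases of *Nppa*, and the use of strand in counting is not given in the sources used here. *Gm13054* was assigned 23 to 42 counts per sample, against at least 10900 for *Nppa*.

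**Figure D2:**
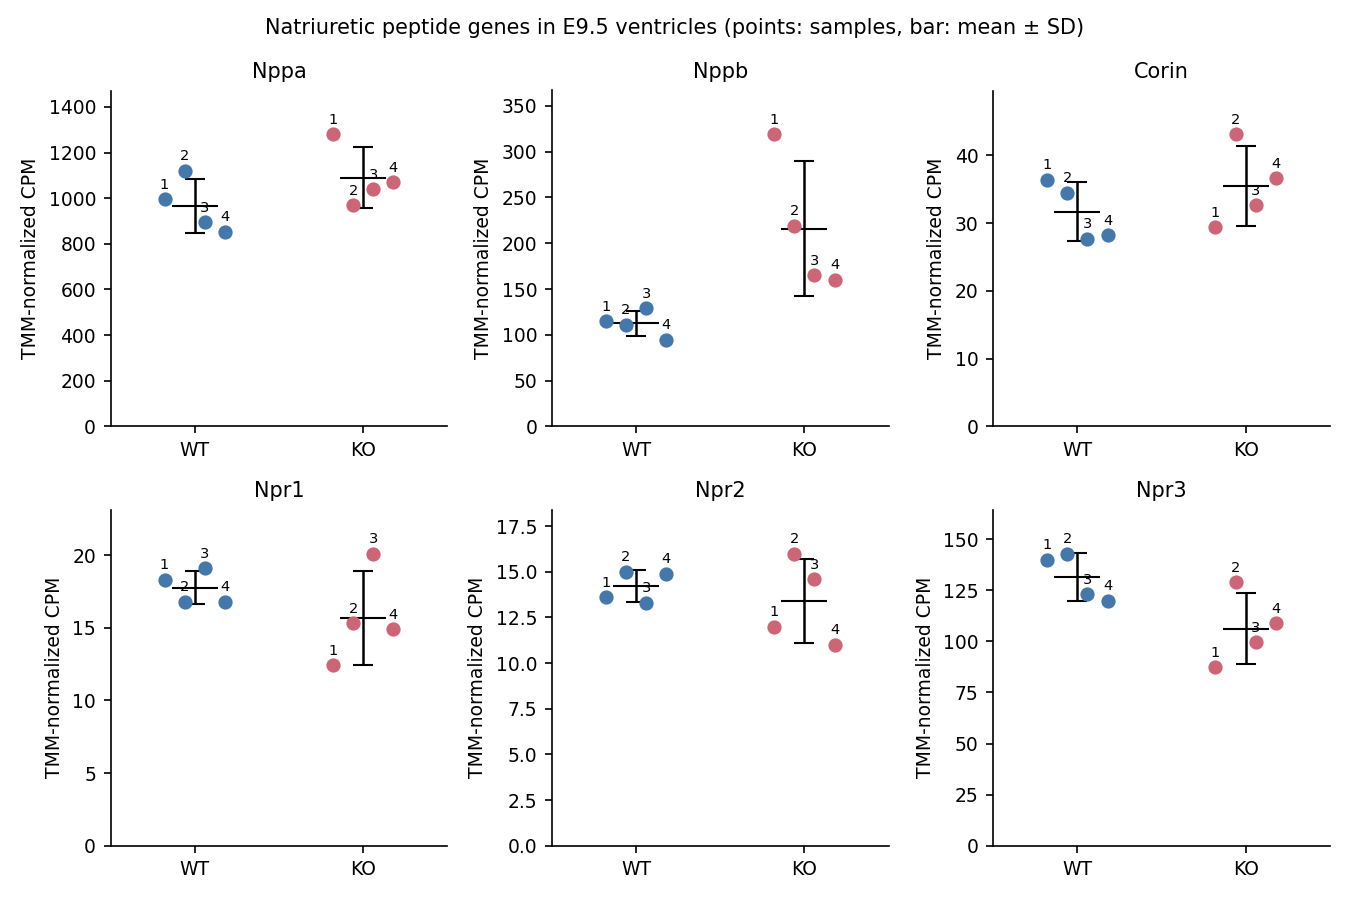
TMM-normalized CPM of 6 natriuretic peptide genes in WT and KO samples (numbered points are replicates, bars are means ± SD of 4). The 4 KO samples of *Nppb* (160 to 319 CPM) lie above the 4 WT samples (94.8 to 129 CPM), and the genotypes overlap in the other 5 genes.

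The ratio of the peptide genes moved with *Nppb*. Per length, there were 7.80, 9.09, 6.27 and 8.13 *Nppa* transcripts for each *Nppb* transcript in WT replicates 1 to 4. In KO replicates 1 to 4 there were 3.61, 4.00, 5.70 and 6.03. The genotypes did not overlap, and the mean log2 ratio was lower in KO by a difference of -0.72 (-0.83 to -0.59 when each sample was left out in turn). This ratio is given as a description, and the difference between the responses of the peptide genes was not tested.

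*Corin* (chr5:72300025-72504473, minus strand), the protease gene for the ANP precursor, did not pass the test. It had 29.4, 43.1, 32.6 and 36.6 CPM in KO and 36.4, 34.5, 27.7 and 28.2 CPM in WT. The groups overlapped, and the log2 fold change was 0.16 (SE 0.13, 95% interval -0.13 to 0.45, adjusted p = 0.487, edgeR). Among 6 other genes of peptide processing and clearance, 5 were tested and 0 passed in edgeR's quasi-likelihood test (8.62% of all genes passed). *Furin*, a convertase gene that acts on the BNP precursor, had 191 CPM in WT and 154 CPM in KO. Its log2 fold change was -0.31 (SE 0.13, unadjusted p = 0.0325 from edgeR's quasi-likelihood test, adjusted p = 0.158). Every KO sample of *Furin* lay below every WT sample, which was so for 9.45% of all genes tested. *Mme*, the gene of neprilysin, which degrades natriuretic peptides, had 34.5 CPM in WT and 37.6 CPM in KO (log2 fold change 0.12, adjusted p = 0.355). *Ostn*, whose product is a ligand of the clearance receptor, had 0 counts in all samples.

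Of the receptor genes, the clearance receptor *Npr3* (chr15:11839896-11907287, minus strand) had a lower mean in KO but did not pass. Its counts were 1031, 1780, 1386 and 1318 in KO and 1831, 1992, 1496 and 1769 in WT, or 87.4, 129, 99.7 and 109 CPM in KO and 140, 143, 123 and 120 CPM in WT. KO replicates 1, 3 and 4 lay below all WT samples, and KO replicate 2 lay within the WT range. The log2 fold change was -0.31 (SE 0.11, 95% interval -0.56 to -0.05, unadjusted p = 0.023 from edgeR's quasi-likelihood test, adjusted p = 0.13). Without KO replicate 2 it was -0.40 with an adjusted p of 0.0343. Fewer endocardial cells and less *Npr3* RNA per cell cannot be told apart in bulk ventricles, as holds for each gene here. As a share of the summed CPM of 14 endocardial and endothelial markers, *Npr3* took 7.84%, 12.1%, 9.63% and 9.82% in KO and 11.5%, 12%, 10.3% and 10.5% in WT. The genotypes overlapped, and scaled to these markers the log2 fold change was -0.17 (adjusted p = 0.351, edgeR).

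The cyclase receptors did not pass either. *Npr1* (chr3:90450591-90465866, minus strand), the receptor gene for ANP and BNP, had 12.4, 15.3, 20.1 and 14.9 CPM in KO and 18.3, 16.8, 19.1 and 16.8 CPM in WT. Its log2 fold change was -0.17 (SE 0.14, 95% interval -0.48 to 0.13, adjusted p = 0.479, edgeR). *Npr2* (chr4:43631935-43651244, plus strand), the receptor gene for CNP, had 12, 16, 14.6 and 11 CPM in KO and 13.6, 15, 13.3 and 14.9 CPM in WT. Its log2 fold change was -0.08 (SE 0.13, 95% interval -0.36 to 0.20, adjusted p = 0.741, edgeR). For both genes the genotypes overlapped, and with 134 to 280 counts per sample counting error is part of the spread.

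*Npr3* was then set against *Corin* and the peptide genes within each sample. The ratio of *Npr3* to *Corin* CPM was 2.97, 2.99, 3.06 and 2.97 in KO and 3.84, 4.14, 4.44 and 4.24 in WT. The genotypes did not overlap, and the KO ratios had an SD of 0.0425 (n = 4) although *Npr3* itself ranged from 87.4 to 129 CPM among them. The mean log2 ratio was lower in KO by a difference of -0.47, between -0.51 and -0.44 when each sample was left out. This ratio was chosen after its values were seen and has no test. The sum of *Nppa* and *Nppb* per unit of *Npr3*, per length, was 202, 102, 133 and 124 in KO and 87.1, 94.2, 91.7 and 87.0 in WT, without overlap. Its mean log2 ratio was higher in KO by 0.60 (0.41 to 0.73 when each sample was left out), the most in KO replicate 1.

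**Figure D3:**
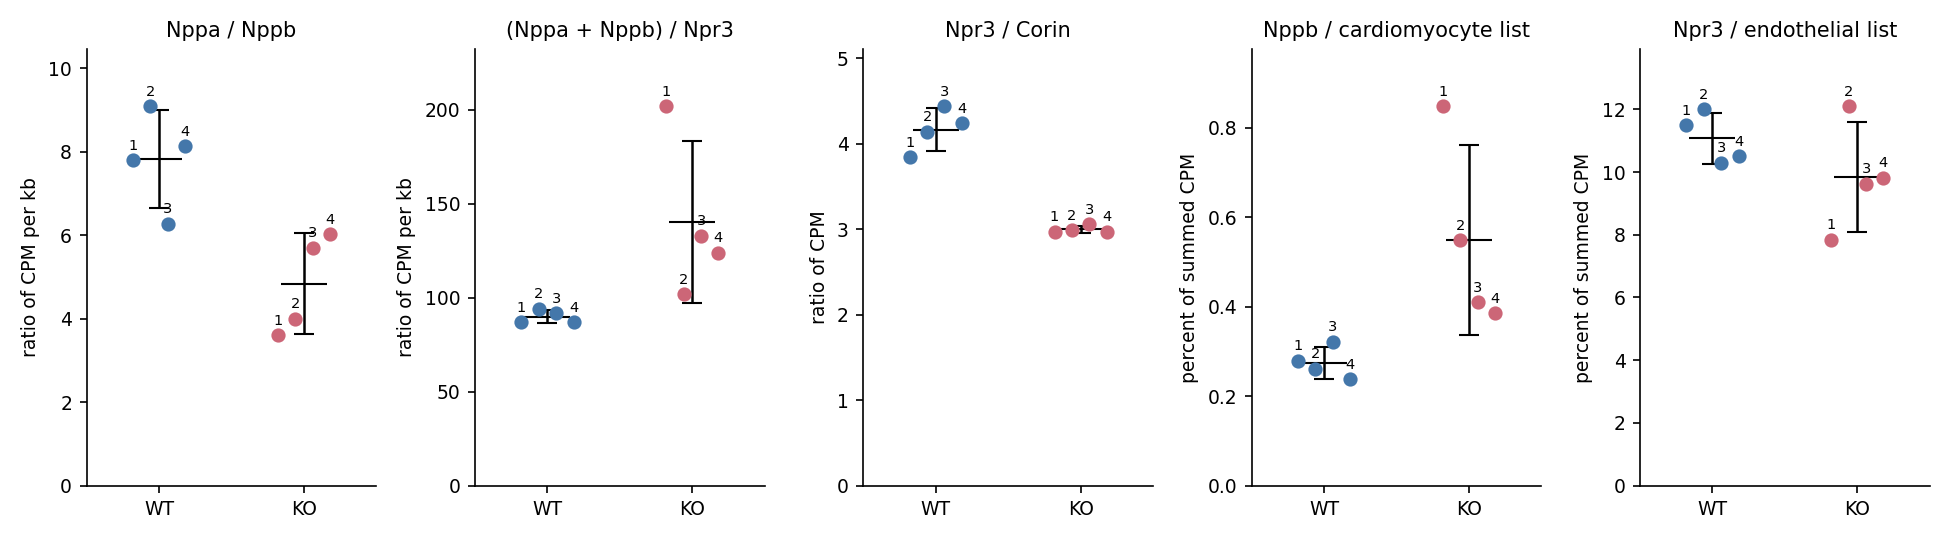
Ratios within samples in WT and KO (numbered points are replicates, bars are means ± SD of 4): *Nppa* over *Nppb* and their sum over *Npr3* in CPM per kb, *Npr3* over *Corin* in CPM, and *Nppb* and *Npr3* as percentages of the summed CPM of cardiomyocyte and endothelial markers. *Npr3* over *Corin* is from 2.97 to 3.06 in the KO samples and from 3.84 to 4.44 in WT, and *Npr3* over endothelial markers overlaps between genotypes.

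Over the deviations of all 8 samples from their genotype means, *Npr3* and *Corin* were the most closely correlated pair of members. The correlation did not pass after adjustment. After the genotype mean was taken from each log2 CPM, Pearson's r was 0.962 (exact permutation p = 0.0104, two-sided, n = 8) and Spearman's rho was 0.952 (exact permutation p = 0.0243). Values were exchanged only within a genotype, which gives 576 orders and a smallest p of 0.00174. Over the 15 pairs of members compared, the adjusted p were 0.156 and 0.365, and without the 2 samples farthest from the median of *Npr3* r was 0.956. Within KO r was 0.996 and within WT 0.951, each over 4 samples. This pair was not the closest within WT alone, where *Npr1* with *Npr2* had r = -0.991 and *Nppa* with *Npr3* had r = 0.95. The other 14 pairs had an adjusted p of at least 0.904 for Pearson's r, among them *Nppa* with *Nppb* (r = 0.503, exact permutation p = 0.241, n = 8).

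**Figure D4:**
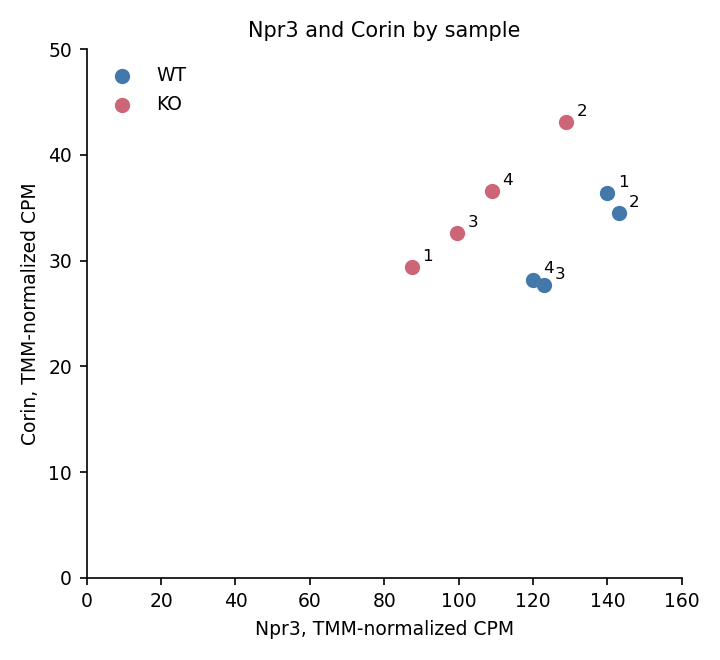
*Corin* against *Npr3* in TMM-normalized CPM, with 1 point per sample, numbered by replicate and coloured by genotype. Samples with more *Npr3* tend to hold more *Corin* within each genotype (r = 0.996 in KO and 0.951 in WT, adjusted p = 0.156 over both by exact permutation), and every KO sample holds more *Corin* per *Npr3* than any WT sample.

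Genes whose sample-to-sample deviations from the genotype mean were most like those of a member are given as a description, over 8 samples and 11093 genes with a mean of at least 5 CPM. For *Nppb* they were *Pgrmc1* (r = 0.994), *Usp9x* (0.993) and *Qk* (0.992), and for *Nppa* they were *Stat6* (0.985), *Kif14* (0.973) and *Gfm2* (0.970). For *Npr3* they were *Cdh3* (0.988), *Klhl41* (0.984) and *Rnf213* (0.982), and for *Corin* they were *Aldh1a1* (0.994), *Naaa* (0.979) and *Nenf* (0.977). No p is given for these values.

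A list of genes around cyclic GMP, the messenger made by the receptors of *Npr1* and *Npr2*, was read next. It also holds genes not specific to these receptors, such as the *Gucy1* cyclase genes and *Kcnq1*. Of 18 genes 16 were tested, 2 rose, 1 fell and 13 did not pass, beside 8.62% of all genes called in either direction, and the median log2 fold change was -0.16 against -0.0014 over all genes tested. *Pde10a*, a phosphodiesterase gene, rose from 6.84 ± 0.276 CPM in WT to 13.1 ± 3.35 CPM in KO (log2 fold change 0.93, SE 0.18, adjusted p = 0.0126, edgeR). *Kcnq1*, a potassium channel gene, rose from 6.36 ± 0.349 to 9.22 ± 0.825 CPM (0.54 on the log2 scale, adjusted p = 0.0206). *Pde3a*, the gene of a cyclic GMP-inhibited phosphodiesterase of heart muscle, fell from 54.6 ± 6 to 41.7 ± 3.44 CPM (log2 fold change -0.39, adjusted p = 0.0294). Neither *Prkg1*, the gene of a cyclic GMP-dependent kinase (-0.22, adjusted p = 0.253), nor *Pde5a*, which encodes a cyclic GMP-specific phosphodiesterase (-0.10, adjusted p = 0.529), passed. Leaving out WT replicate 1 ended the call of *Pde10a* (0.90, adjusted p = 0.0504). Leaving out KO replicate 3 or 4 or WT replicate 1, 2 or 3 ended that of *Pde3a* (adjusted p from 0.0689 to 0.0846), as did scaling to sarcomere genes (-0.34, adjusted p = 0.0796) and to endothelial markers (-0.25, adjusted p = 0.0815), and leaving out KO replicate 4 or WT replicate 1, 3 or 4 that of *Kcnq1* (adjusted p from 0.0588 to 0.0706).

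Transcription factors known to act on the peptide promoters were also compared. All 20 were tested, 0 rose, 6 fell and 14 did not pass (edgeR's quasi-likelihood test; of all genes 5.11% rose and 3.50% fell), with a median log2 fold change of -0.22. The clearest was *Mef2c*, a myocyte enhancer factor, with 149 ± 9.62 CPM in WT and 111 ± 8.24 CPM in KO (log2 fold change -0.42, SE 0.07, adjusted p = 0.00718), which kept its call when any sample was left out. The T-box factors *Tbx20* (-0.31, adjusted p = 0.0165) and *Tbx3*, which represses chamber genes (-0.72, adjusted p = 0.0334), the cofactor *Myocd* (-0.32, adjusted p = 0.0357), *Hopx* (-0.44, adjusted p = 0.0404) and *Prrx2* (-0.48, adjusted p = 0.0474) fell as well. Among factors that bind the letters searched in the windows, *Gata4* (-0.07, adjusted p = 0.63), *Nkx2-5* (0.08, adjusted p = 0.75), *Tbx5* (-0.27, adjusted p = 0.125) and *Tead1* (-0.12, adjusted p = 0.236) did not pass, while the T-box factors *Tbx20* and *Tbx3* are among those that fell. *Tbx20* lost its call without WT replicate 1, 3 or 4 (adjusted p from 0.0546 to 0.0591), and *Tbx3* (0.0668 to 0.101) and *Myocd* (0.0565 to 0.108) lost theirs without KO replicate 4 or any WT replicate. *Hopx* (0.0644 to 0.129) and *Prrx2* (0.066 to 0.13) lost theirs without KO replicate 2 or 4 or any WT replicate. Between 1 and 8 factors were called lower when a sample was left out, with 1 without WT replicate 1, 3 or 4 and 2 without KO replicate 4 or WT replicate 2. Scaled to sarcomere genes 4 were called, without *Myocd* (adjusted p = 0.0617) and *Prrx2* (adjusted p = 0.0531), and without hemoglobin and mitochondrial genes *Prrx2* had an adjusted p of 0.0522. Scaled to endothelial markers 1 was called, *Mef2c*, and among those not called were *Tbx20* (-0.18, adjusted p = 0.16) and *Myocd* (-0.19, adjusted p = 0.203).

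The peptide genes were set beside other markers of the trabecular layer in which *Nppa* is expressed. All 15 trabecular and conduction markers were tested, and 8 fell, 0 rose and 7 did not pass (edgeR's quasi-likelihood test; 3.50% of all genes fell), with a median log2 fold change of -0.46. The largest falls were in *Slit2*, a guidance cue (-1.72), *Cntn2*, a cell adhesion gene of the conduction system (-1.68), and *Irx3*, a homeobox gene of the trabeculae (-1.43), with adjusted p of 0.00119, 0.0104 and 0.00471. *Bmp10*, a growth factor gene of trabecular cardiomyocytes, fell by 0.57 on the log2 scale (adjusted p = 0.0159). *Nppa* (0.17) did not share this direction, and *Nppb* (0.94) moved the other way. Of these markers, 5 to 8 were called lower when a sample was left out, with 5 without KO replicate 4 or WT replicate 1, 2 or 3.

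**Figure D5:**
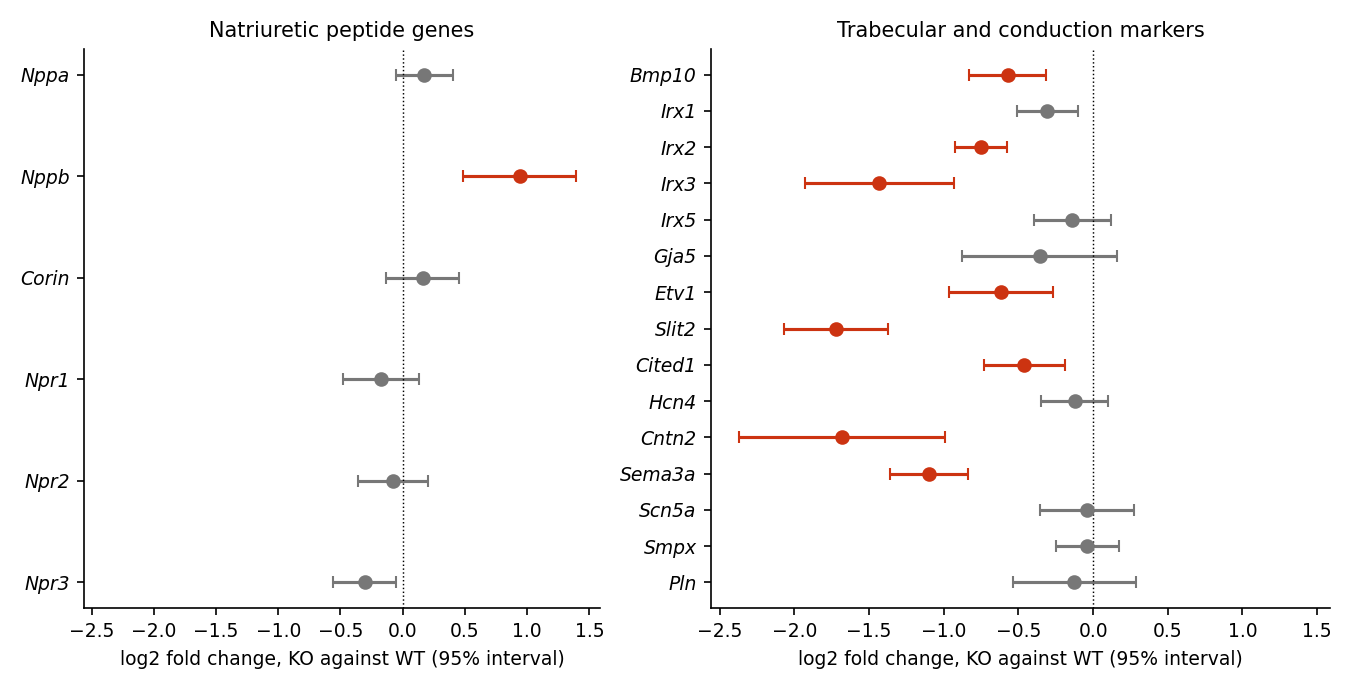
Log2 fold change of KO against WT with its 95% interval for 6 natriuretic peptide genes and 15 trabecular and conduction markers. Red points have an adjusted p under 0.05 and grey points do not: *Nppb* is the red point above 0, and 8 of the markers are red below 0.

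The make-up of the tissue was read from marker lists, whose counts stand beside 5.11% higher and 3.50% lower over all genes. All 13 sarcomere genes, which mark heart muscle, were tested. *Myl2*, the ventricular myosin light chain gene, was among them, at 2130 ± 180 CPM in WT and 2250 ± 474 CPM in KO (SD, n = 4). The summed level of the 13 genes was 39900 to 42500 CPM in WT and 37600 to 41300 CPM in KO, with 1 gene lower (*Tpm1*, -0.22 on the log2 scale, adjusted p = 0.0303, edgeR). As a share of that sum *Nppb* took 0.848%, 0.548%, 0.410% and 0.386% in KO and 0.279%, 0.261%, 0.322% and 0.238% in WT, without overlap. Scaled to the sarcomere genes the log2 fold change of *Nppb* was 0.997 (adjusted p = 0.0281). *Corin* took 0.0783% to 0.108% of the sum in KO and 0.0691% to 0.0881% in WT. Of the 10 atrial markers, 9 were tested and 1 was lower (*Angpt1*, adjusted p = 0.0382, edgeR). Their summed levels were 4850 to 5490 CPM in WT and 3890 to 5590 CPM in KO. Most of this sum was *Myl7* (2550 CPM in WT, 2290 CPM in KO) and *Myl4* (2400 CPM in WT, 2360 CPM in KO). *Sln*, the defining atrial gene of the list, had at most 6 counts. Of 14 endothelial markers 1 was lower (*Tek*, -0.34 on the log2 scale, adjusted p = 0.031), and their summed level was 1140 to 1210 CPM in WT and 1030 to 1110 CPM in KO. *Tek* (adjusted p from 0.0553 to 0.107) and *Tpm1* (0.0582 to 0.0956) lost their calls without KO replicate 3 or 4 or any WT replicate. Both lost them when scaled to endothelial markers (*Tek* -0.20, adjusted p = 0.138, and *Tpm1* -0.08, adjusted p = 0.438), and *Tpm1* also when scaled to sarcomere genes (-0.17, adjusted p = 0.0797).

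Blood moved with genotype. All 12 primitive erythroid markers were higher in KO, with a summed level of 20000 to 69200 CPM against 6750 to 8180 CPM in WT and a median log2 fold change of 2.44. Among KO samples *Nppb* and this sum did not follow the same order. KO replicate 1 was highest in both, but KO replicate 2, with the lowest erythroid sum (20000 CPM), had the second-highest *Nppb* (219 CPM), and KO replicate 4, at 41400 CPM, had the lowest. Without hemoglobin and mitochondrial genes the log2 fold change of *Nppb* was 0.95 (adjusted p = 0.0199, edgeR). Of 7 epicardial markers 2 were higher, with a summed level of 492, 453, 290 and 318 CPM in KO replicates 1 to 4 and 193 to 255 CPM in WT. KO replicates 1 and 2 were thus the highest KO samples in both the epicardial sum and *Nppb*. Of 7 outflow markers tested 4 were lower, with sums of 111, 122, 155 and 135 CPM in KO replicates 1 to 4, where replicates 1 and 2 were the lowest, and 194 to 202 CPM in WT. Of 8 compact layer markers 3 were lower (1250, 1530, 1570 and 1500 CPM in KO replicates 1 to 4, 1870 to 1880 CPM in WT), and of 3 leukocyte markers tested 1 was higher (19.6 to 26.9 CPM in KO, 17.6 to 23.7 CPM in WT). The part of these differences in the result for *Nppb* was not tested.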

How the data were processed

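Gene-level expected counts, as deposited, came from RSEM 1.3.1 on GRCm38 after trimming with cutadapt (the submitters' processing notes), unscaled for depth or length. The aligner, its version and the use of strand are not given in the sources used here. Gene symbols were matched for 53274 of 53465 genes. The expected counts were rounded and tested with edgeR 4.0.16 in R 4.3.3 (TMM normalization, filterByExpr by genotype, quasi-likelihood test, Benjamini-Hochberg adjustment over 14451 genes, threshold 0.05). Standard errors are the log2 fold change over the square root of F. CPM are relative to TMM-scaled totals of the tested genes. Exon lengths come from GENCODE M21. Deviations used log2(CPM + 0.5).

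The members and gene lists were chosen with earlier results of these data known. Named were all members, listed pathway and regulator genes past the threshold, up to 3 genes with the largest change from the trabecular, endothelial and sarcomere lists, and the 3 genes most like a member. Other listed genes that are named with their values (*Furin*, *Mme*, *Ostn*, *Prkg1*, *Pde5a*, *Gata4*, *Nkx2-5*, *Tbx5*, *Tead1*, *Bmp10*, *Angpt1*, *Sln*, *Myl2*) were chosen after their values were seen. A list of genes near the peptide genes is not reported here. No samples of a genotype looked like repeats of 1 library (the lowest chi-square per degree of freedom between any pair was 3.77). The test was first tried on simulated counts. The alternatives tried were edgeR's likelihood ratio test, DESeq2 1.42.0, voom (limma 3.58.1), other normalization, filters and scalings, a replicate block and each replicate left out. Figures used matplotlib 3.10.9 in Python 3.11.15.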

Additional observations from a re-analysis of the deposited data

Results flagged for a closer look

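In 1 of 30 groups of 4 samples examined, a sample lay far from the other 3, where chance flags about 5% of groups. *Nppa* as a share of the summed CPM of sarcomere genes was 3.39% in KO replicate 1 against 2.43%, 2.59% and 2.58% in the other KO samples, and the gap to the nearest sample was 0.833 of the range.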

How the results depend on the processing

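Across 10 alternative analyses *Nppb* kept its direction and its call, with a log2 fold change from 0.89 to 1.07 and an adjusted p from 7.1e-05 to 0.0345, whereas *Nppa* (0.16 to 0.30), *Npr3* (-0.32 to -0.17), *Corin* (0.15 to 0.30) and *Npr1* (-0.19 to -0.03) kept their directions without a call. *Npr2* changed sign when scaled to endothelial markers (0.055), a scaling that moves the median of all genes to 0.13. With each replicate left out, the log2 fold change ranged from 0.69 to 1.06 for *Nppb*, from 0.09 to 0.25 for *Nppa*, from -0.40 to -0.22 for *Npr3*, from 0.06 to 0.24 for *Corin*, from -0.32 (without KO replicate 3) to -0.07 for *Npr1* and from -0.17 to 0.0022 for *Npr2*, which turned without KO replicate 4. From 0 to 2 members were called. The number of genes called ranged from 509 (without WT replicate 1) to 2523 (without KO replicate 1), with 335 to 1368 higher and 174 to 1155 lower, and from 5 to 8 trabecular markers and 1 to 8 regulators were called lower. Scaling to endothelial markers gave 2185 genes, 2012 higher and 173 lower, with 1 regulator lower, and scaling to sarcomere genes gave 300 lower. Replicate numbers run from 1 to 4 in both genotypes but nothing in the labels pairs them, and deviations of same-numbered samples correlated at 0.011, -0.091, -0.004 and 0.019. A fit with a replicate block called 616 genes, 398 higher and 218 lower, with 3 regulators lower. *Nppb* was at 0.89 (adjusted p = 0.0345) with the block. Of the other genes named by rule, the block ended the calls of *Kcnq1* (adjusted p = 0.0744), *Tbx3* (0.0523), *Hopx* (0.102), *Prrx2* (0.0687), *Tek* (0.0832) and *Tpm1* (0.0874). The cause of these shifts was not tested. With 4 samples per genotype and 134 to 280 counts for *Npr1* and *Npr2*, small changes in these receptors were not detectable.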
